A study of Mus musculus with 2 samples.

Results

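The genes described here are 8 that make leukotrienes and prostaglandins, out of 32285 genes in the count tables: Alox5, Alox5ap, Lta4h, Ltc4s, Ptgs1, Hpgds, Ptges and Alox15. They were chosen by name, and all 8 symbols were found. They were measured by single-cell RNA-seq in 2 libraries, 1 per condition, of bone marrow from female mice aged 10 weeks whose strain and genotype are both given as C57BL/6. Both cultures received GM-CSF and IL6, each at 50 ng/mL, for 4 days to give myeloid-derived suppressor cells (MDSCs). One culture received 1.5 µmol/L dabrafenib, a BRAF inhibitor (DAB), and the control received the same volume of its solvent (DMSO). How many mice each library came from is not stated, and no sort of the cells is named; the cultures held several myeloid types and some B cell-like cells. With 1 library per condition no test was possible, and all intervals cover counting error only.

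Leukotrienes and prostaglandins are short-lived lipid signals made from arachidonic acid, which phospholipases free from membranes. 5-lipoxygenase (Alox5), fed by its membrane partner FLAP (Alox5ap), makes the unstable intermediate leukotriene A4. Leukotriene A4 hydrolase (Lta4h) turns it into leukotriene B4, a strong attractant of neutrophils, whereas leukotriene C4 synthase (Ltc4s) joins it to glutathione and opens the branch of cysteinyl leukotrienes, known for their part in allergic inflammation. Cyclooxygenase-1 (Ptgs1) starts the prostanoid branch, from which hematopoietic prostaglandin D synthase (Hpgds) makes prostaglandin D2 and the microsomal synthase Ptges makes prostaglandin E2, a lipid linked to suppression by MDSCs. Alox15 encodes a lipoxygenase that acts on other carbons of arachidonic acid and marks eosinophils and some macrophages.

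The genes lie apart in the GRCm38 genome, the build of the files. In the GENCODE annotation, Alox5 spans chr6:116410077-116461178 on the minus strand, Lta4h chr10:93453411-93484875 on the plus strand and Ltc4s chr11:50236461-50238616 on the minus strand. Alox5ap spans chr5:149264767-149288153 (plus), Ptgs1 chr2:36230426-36252272 (plus), Hpgds chr6:65117293-65144908 (minus), Ptges chr2:30889471-30929863 (minus) and Alox15 chr11:70344152-70352031 (minus). Only Ptges overlaps another gene on its own strand, Gm13400, so its counts are less certain.

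Promoter windows of 300 bases, from 250 before to 50 after the start, were taken from RefSeq (GRCm38.p6) for 6 of the 8 genes. Those of Alox5, Lta4h and Ltc4s are printed because the results turn on the first enzyme of the route and on Lta4h and Ltc4s, which compete for its product. Capitals mark the PU.1 core GAGGAA, the GC box GGGCGG and the CCAAT box CCAAT on either strand; no other searched motif matched in these 3 windows. The windows lie at chr6:116461129-116461428 (minus strand), chr10:93453146-93453445 (plus strand) and chr11:50238483-50238782 (minus strand).
Alox5: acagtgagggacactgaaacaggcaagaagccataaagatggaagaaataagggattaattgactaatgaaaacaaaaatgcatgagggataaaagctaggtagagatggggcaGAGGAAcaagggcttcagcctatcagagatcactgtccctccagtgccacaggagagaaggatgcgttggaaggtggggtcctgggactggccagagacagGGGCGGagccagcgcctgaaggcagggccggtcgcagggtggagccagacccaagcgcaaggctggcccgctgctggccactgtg
Lta4h: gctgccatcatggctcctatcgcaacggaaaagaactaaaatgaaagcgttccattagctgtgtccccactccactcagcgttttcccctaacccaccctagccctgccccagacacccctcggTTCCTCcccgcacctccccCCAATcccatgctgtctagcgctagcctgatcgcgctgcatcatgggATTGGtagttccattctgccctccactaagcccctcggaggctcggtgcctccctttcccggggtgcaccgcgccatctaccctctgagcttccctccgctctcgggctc
Ltc4s: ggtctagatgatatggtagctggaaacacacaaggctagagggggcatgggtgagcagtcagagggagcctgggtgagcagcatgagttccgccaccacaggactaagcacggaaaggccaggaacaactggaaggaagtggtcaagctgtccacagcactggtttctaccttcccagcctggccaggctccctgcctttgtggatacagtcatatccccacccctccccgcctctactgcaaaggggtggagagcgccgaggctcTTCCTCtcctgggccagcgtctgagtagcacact

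The PU.1 core, bound by ETS factors of the myeloid lineage, was found on 1 strand or the other in all 6 windows, against 28.3% of 32851 promoter windows of the same length. The GC box occurred in the windows of Alox5 and Ptges (35.7% of all windows), and the CCAAT box in that of Lta4h (37.4%). The windows held no match to TTGCATCA, the site of C/EBP and ATF factors in stress response genes, which 0.895% of all windows hold, to the AP-1 site TGACTCA (5.2%) or to TATAAA (13.6%). A match of letters is a description of the sequence and was not tied to any level below.

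The DMSO library held 92131585 UMIs (unique molecular identifiers, 1 per captured transcript) in 9023 cells and the DAB library 139670148 in 10460 cells, after filtering. DAB cells were deeper, with a median of 9345 UMIs against 7482, so levels are given as UMIs per 1000000 UMIs of the same cells (CPM). After the filter, 118 cell barcodes occurred in both libraries. The cells fell into 27 clusters, lettered A to AA, built without these genes, and 15 of them could be named from markers. The names cover 10 classes, and 47.1% of DMSO and 45.1% of DAB cells lay in clusters with no name. Of the marker lists, summed intermediate granulocyte markers were 11100 CPM in DMSO and 6080 CPM in DAB. Chil3 (4000 and 1490 CPM) and Ngp (2950 and 871 CPM) had the largest drops of that list. Retnlg went the other way (363 and 1090 CPM), Mmp8 had 577 and 594 CPM, and the rest of the list was lower in DAB. Summed eosinophil markers were 18.2 CPM in DMSO and 92.9 CPM in DAB. Prg2 (4.78 and 76.4 CPM) made up most of the eosinophil sum in DAB. Siglecf had 5.09 and 8.14 CPM and Epx 1.74 and 3.78 CPM, while Ear2 had 1.76 and 0.609 CPM and Ear6 4.19 and 1.25 CPM.

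Over all cells, Alox5, Alox15 and Hpgds were higher in the DAB library, and none of the other 5 genes differed enough for a direction to be read. A gene counted as higher or lower where its log2 ratio was 0.5 or more away from 0 and the counting interval did not reach 0. This gave 3 of 8 genes higher and 0 lower, where 13.8% of 16381 genes were higher, 16.4% lower and 30.2% either. The median log2 ratio of the 8 genes was 0.09, and that of all genes was -0.02.

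Alox5 had 12168 UMIs (132 CPM) in DMSO and 38842 (278 CPM) in DAB, a log2 ratio of 1.07 (95% interval 1.04 to 1.10). Alox15 went from 166 UMIs (1.80 CPM) to 1249 (8.94 CPM), a log2 ratio of 2.31 (2.08 to 2.55). Hpgds had 170 UMIs (1.85 CPM) in DMSO and 432 (3.09 CPM) in DAB, a log2 ratio of 0.75 (0.49 to 1.01). With DAB clusters weighted to the DMSO mix of cells, the ratio of Alox15 was 1.64, that of Alox5 1.03 and that of Hpgds 0.52.

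Lta4h and Ltc4s, which both use leukotriene A4, were lower in DAB by less than the limit. Lta4h had 160 CPM in DMSO and 118 CPM in DAB (log2 ratio -0.43, -0.47 to -0.40), and Ltc4s had 75.6 and 55.0 CPM (-0.46, -0.51 to -0.41). When each cell was given the same weight, these ratios were -0.74 and -0.75, past the limit. Alox5ap had 1020 CPM in DMSO and 957 CPM in DAB (-0.09). Ptgs1 had 146 and 175 CPM (0.27), and Ptges had 11.1 and 8.98 CPM (-0.31), a ratio that turned to 0.18 with each cell at the same weight.

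**Figure D1:**
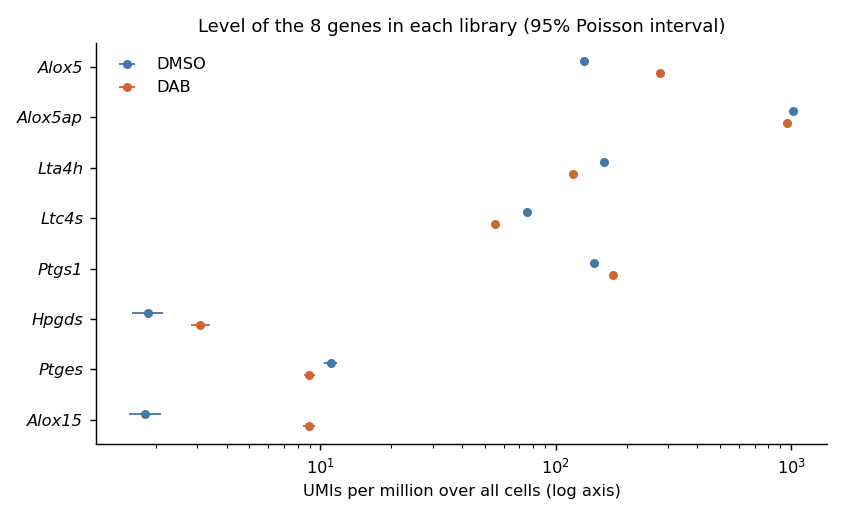
Level of each gene in CPM over all cells, on a log axis, in DMSO (blue) and DAB (orange), with 95% Poisson intervals that are mostly narrower than the points. Alox5, Hpgds and Alox15 lie to the right in DAB, while Lta4h, Ltc4s and Ptges lie to the left.

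To compare how many cells held a UMI, each cell was thinned to 1500 UMIs, which left 8587 DMSO and 10168 DAB cells. Alox5 was found in 17.1% of the DMSO cells (exact binomial 95% interval 16.3 to 17.9) and in 27.4% of those of DAB (26.5 to 28.3). Alox5ap was found in 72.0% and 63.8% of cells, Lta4h in 15.9% and 10.9%, Ltc4s in 7.24% and 4.65%, and Ptgs1 in 17.2% and 18.4%. The share for Ptges, 1.93% and 2.22%, went against its CPM, and no order is read from it. B cell-like cells were used as a background for Alox5, Alox5ap and Ltc4s: 0 of 141 DMSO and 0 of 190 DAB cells held Alox5 or Ltc4s, where 3 counts would be 2.13% and 1.58%, and Alox5ap was found in 4.26% and 0.526%. They give no background for Lta4h, found in 9.93% and 7.37% of them, since by level Lta4h stood at 62.5 and 58.8 CPM there beside 57.2 and 11.6 CPM of Alox5ap, a different ratio from that of all cells, nor for Hpgds. The median depth of the B cell-like cells before thinning was 3806 UMIs in DMSO and 4540 in DAB. Without thinning the shares of Alox5 over all cells were 52.7% and 68.7%.

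Alox5 and Alox5ap were found together in 13.3% of the DMSO cells (12.6 to 14.0), and in DAB the share was 19.3% (18.6 to 20.1). The product of their single shares was 12.3% and 17.5%. Cells with both and Lta4h, the full set for leukotriene B4, were 2.14% in DMSO (1.85 to 2.47), against 2.36% in DAB (2.07 to 2.67). Cells with both and Ltc4s, the set for leukotriene C4 through this synthase, were 0.943% (0.750 to 1.17) and 1.07% (0.881 to 1.29). Mgst2, which can also make leukotriene C4, was not part of this set. The intervals of the libraries overlapped for both full sets and not for the pair.

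By class the counts were small, and no difference between classes was tested. The share with a direction was furthest above that of all genes in immature monocyte-like, mature PMN-like and chemokine-high granulocyte-like cells. In the other classes compared, intermediate granulocyte-like cells among them, it was nearer to the share of all genes. All genes were not matched to these genes in UMIs, and a direction is read more easily with more UMIs. Of the genes with at least 20 UMIs in a class, 3 of 8 were higher and 3 lower in immature monocyte-like cells, where 31.2% of all genes had a direction. In intermediate granulocyte-like cells 3 of 8 were higher and 1 lower (36.5% of all genes), in mature PMN-like cells 2 of 7 were higher and 2 lower (28.4%), while chemokine-high granulocyte-like cells had 1 of 7 higher and 2 lower (22.2%). In mature monocyte-like cells 2 of 7 were higher and 0 lower (28.6%), and in macrophage-like cells 1 of 7 was higher and 1 lower (23.1%). Activated dendritic-like cells had 0 of 5 higher and 1 lower (22.3%), basophil or mast cell-like cells 1 of 3 higher and 0 lower (20.9%), and B cell-like cells 0 of 3 higher and 1 lower (23.8%). Granulocyte progenitor-like cells, with 31 DMSO and 44 DAB cells, were too few to compare and are given by level only.

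Alox5 was the gene whose difference was shared most widely. It could be compared in 24 of 25 clusters that held 50 cells or more per library; its level was above that of DMSO in all 24, and a direction was read in 23, with a median log2 ratio of 0.86. By class, the largest difference was in immature monocyte-like cells, with 653 UMIs (48.5 CPM) in DMSO and 1505 (161 CPM) in DAB, a log2 ratio of 1.73 (1.60 to 1.87). Macrophage-like cells had 72.8 and 181 CPM (1.32, 1.02 to 1.62), and mature monocyte-like cells 159 and 333 CPM (1.06, 0.93 to 1.20). In 5 other clusterings these ratios were 0.80 to 1.31 and 0.83 to 1.03. In the granulocyte classes the ratios were 0.62 (intermediate), 0.68 (mature PMN) and 0.99 (chemokine-high). In 6 other clusterings that of mature PMN-like cells was lower, 0.46 to 0.61, with a direction in 4. That of chemokine-high cells was lower as well, 0.45 to 0.84, with a direction in 5.

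Activated dendritic-like cells were the exception, with 93.5 CPM of Alox5 in DMSO and 94.3 CPM in DAB (log2 ratio 0.01, -0.28 to 0.30). The highest level of Alox5 was in basophil or mast cell-like cells, defined by Mcpt8, Prss34 and Cpa3, at 452 CPM in DMSO (389 to 522) and 646 CPM in DAB (593 to 702). These cells were few, 53 in DMSO and 87 in DAB, and their ratio of 0.51 lay between 0.48 and 0.55 over 6 other clusterings. Of 5 markers of mast cells alone, Tpsab1 and Mcpt4 had 0 UMIs over all cells, and Cma1 had 1 in DMSO and 2 in DAB. Tpsb2 had 1 and 40, and 33 of the 40 lay in cluster O. Kit, which is on the early progenitor list as well, had 590 and 933 UMIs. In DMSO the next classes were intermediate granulocyte-like (197 CPM), mature monocyte-like (159 CPM) and mature PMN-like cells (115 CPM). B cell-like cells had 10.6 and 7.13 CPM.

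Alox5ap, the FLAP gene, had a flatter pattern, with a direction read in 2 of 9 classes. It was highest in intermediate granulocyte-like cells in DMSO (1590 CPM) and in basophil or mast cell-like cells in DAB (1970 CPM), and in DMSO these 2 classes were not separated by counting error. In mature PMN-like cells, named for Csf3r and Il1rn, it went from 1310 to 739 CPM, a log2 ratio of -0.82 (-0.89 to -0.75) that stayed between -0.86 and -0.67 in 6 other clusterings. In these same cells Alox5 was 115 CPM in DMSO and 185 CPM in DAB, so the enzyme and its partner differed in opposite directions. In B cell-like cells, which held 43 and 13 UMIs, Alox5ap fell from 57.2 to 11.6 CPM, and the ratio of -2.30 was -0.34 in 1 other clustering.

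**Figure D2:**
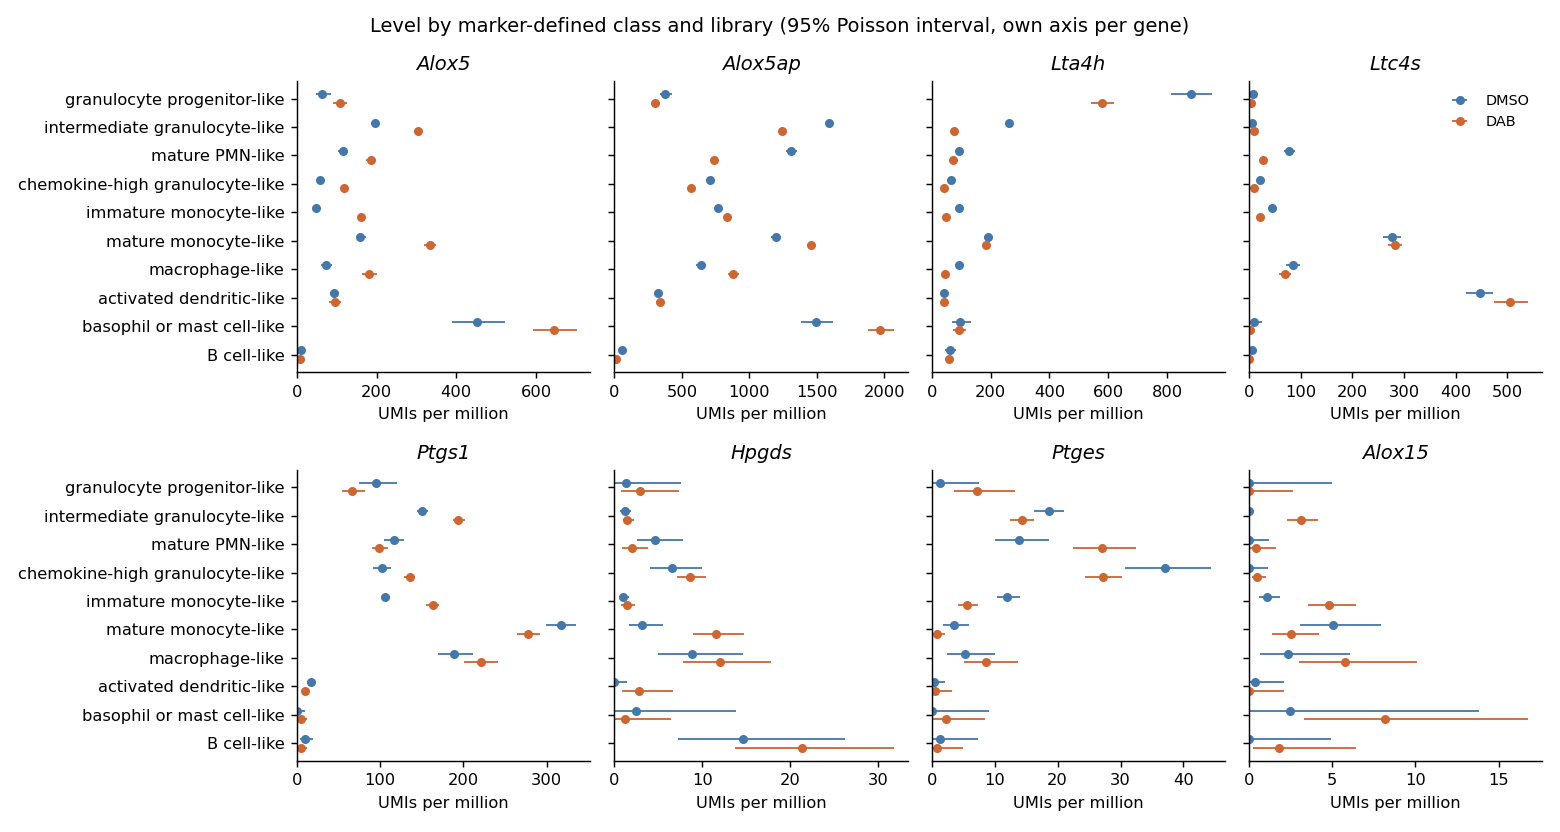
Level of each gene in CPM by marker-defined class, with DMSO in blue, DAB in orange and 95% Poisson intervals; each gene has its own axis starting at 0. In this clustering Lta4h peaks in granulocyte progenitor-like cells (880 and 580 CPM), Ltc4s in activated dendritic-like cells (447 and 506 CPM) and Ptgs1 in mature monocyte-like cells (317 and 278 CPM).

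Lta4h and Ltc4s, which use the same intermediate, had their highest levels in different classes. Lta4h was highest in granulocyte progenitor-like cells, defined by Elane, Mpo and Prtn3, at 880 CPM in DMSO (814 to 951) and 580 CPM in DAB (540 to 621). This rests on the clustering: the class stayed highest in DMSO in 4 of 7 other clusterings and gave way to intermediate granulocyte-like cells in 3, and its level was 184 to 617 CPM in the 6 that had it. After thinning it was found in 20 of these 31 DMSO cells and 19 of 44 DAB cells. In DMSO the next level was in cluster H of the intermediate granulocyte-like class, led by Camp, Ltf and Ngp, at 539 CPM in DMSO (521 to 559) and 169 CPM in DAB. Ltc4s in these progenitor-like cells had 6 UMIs in each library, 8.15 and 4.34 CPM.

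The intermediate granulocyte-like class had the largest drop of Lta4h, from 3411 UMIs (263 CPM) to 1162 (75.4 CPM), a log2 ratio of -1.80 (-1.90 to -1.71). This class is a mix of clusters whose shares differed, since cluster H held 719 of its 1931 DMSO cells and 289 of its 1559 DAB cells. The ratio was -1.68 within cluster H, -0.23 within cluster A and 0.54 within cluster Q. Lta4h was also lower in macrophage-like cells (93.5 and 43.8 CPM, -1.09), immature monocyte-like cells (92.6 and 50.2 CPM, -0.88) and chemokine-high granulocyte-like cells (67.0 and 42.3 CPM, -0.66). The ratio in immature monocyte-like cells was -0.37 in 1 of 6 other clusterings, and 3 of the 6 had it past the limit. In mature monocyte-like cells the levels were 191 and 184 CPM (-0.06, -0.20 to 0.08). By cluster, 11 of 25 had Lta4h lower and 1, cluster S, led by Prg2 and Cdc20, had it higher (75.1 and 197 CPM).

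Ltc4s had the most uneven pattern of the genes of the leukotriene route. Activated dendritic-like cells, defined by Ccr7, Fscn1 and Ccl22, had 1170 UMIs (447 CPM, 421 to 473) in DMSO and 886 (506 CPM, 474 to 541) in DAB. Mature monocyte-like cells, defined by genes of antigen presentation such as H2-Aa, had 277 and 283 CPM. Both classes stood apart from all others in both libraries, and neither showed a direction (0.18 and 0.03). The next level, in the unnamed cluster E led by Ccl24, was 169 and 126 CPM.

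Where Ltc4s was low it was mostly lower still in DAB. Mature PMN-like cells went from 236 UMIs (77.9 CPM) to 120 (26.7 CPM), a log2 ratio of -1.55 (-1.88 to -1.22). Chemokine-high granulocyte-like cells went from 22.1 to 9.09 CPM (-1.29) and immature monocyte-like cells from 43.7 to 20.8 CPM (-1.07). The ratios of these 2 classes shrank to -0.51 and -0.38 in other clusterings, and each kept its direction in 5 of 6. Intermediate granulocyte-like cells went the other way, from 6.48 to 9.41 CPM (0.54, 0.14 to 0.94), and this ratio was 0.19 in 1 other clustering. Within cluster A, which held 64 of the 84 DMSO UMIs of this class, the ratio was 0.15 (-0.33 to 0.63). By cluster, Ltc4s was lower in 10 of the 23 compared and higher in 3. Basophil or mast cell-like cells, the class with the highest Alox5, held 4 UMIs of Ltc4s in DMSO and 1 in DAB, and 0 of 84 DAB cells held Ltc4s after thinning, where 3 counts would be 3.57%.

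By class, the set for leukotriene C4 was found in the largest share of mature monocyte-like cells. In DMSO the interval of that share overlapped those of activated dendritic-like, basophil or mast cell-like, macrophage-like, granulocyte progenitor-like and B cell-like cells. In DAB it overlapped that of granulocyte progenitor-like cells. Mature monocyte-like cells with Alox5, Alox5ap and Ltc4s were 8 of 169 in DMSO (4.73%, 2.07 to 9.11) and 19 of 181 in DAB (10.5%, 6.44 to 15.9). Cells with Alox5, Alox5ap and Lta4h were 6 of 169 (3.55%) and 12 of 181 (6.63%, 3.47 to 11.3), beside 3.85% and 7.14% in basophil or mast cell-like cells and 3.60% and 2.51% in intermediate granulocyte-like cells. Granulocyte progenitor-like cells held that set in 3 of 31 cells in DMSO (9.68%, 2.04 to 25.8), against 0 of 44 in DAB (3 counts would be 6.82%). The intervals of the libraries overlapped for each set. In activated dendritic-like cells, the class with the highest Ltc4s, the set was held by 5 of 154 cells in DMSO (3.25%, 1.06 to 7.41). In DAB it was held by 0 of 108 (3 counts would be 2.78%).

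**Figure D3:**
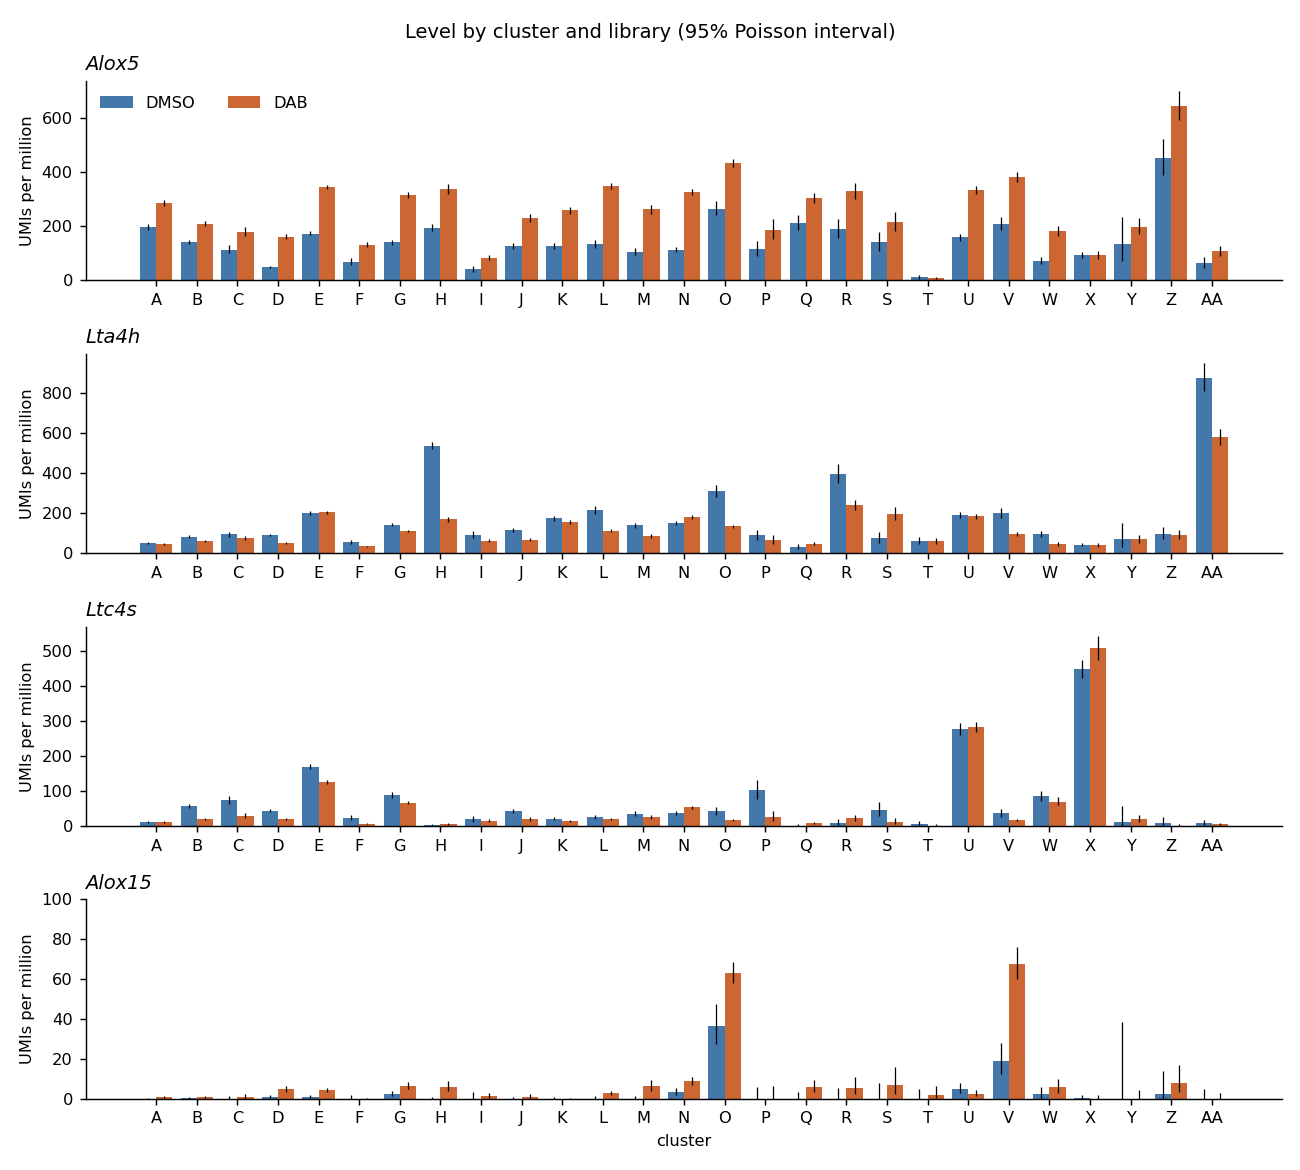
Level of Alox5, Lta4h, Ltc4s and Alox15 in CPM in each of the 27 clusters, with DMSO in blue, DAB in orange and 95% Poisson intervals; the Alox15 axis ends at 100 CPM. Alox5 is higher in DAB in 23 of the 24 clusters compared, Lta4h peaks in AA and H, Ltc4s in X and U, and Alox15 in O and V.

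Among the named classes Ptgs1, the constitutive cyclooxygenase, was highest in mature monocyte-like cells at 317 CPM in DMSO (299 to 336) and 278 CPM in DAB (264 to 292). Its DMSO level there was 176 to 310 CPM in the 6 other clusterings that had the class, and it was the highest in 6 of 7. In DAB the unnamed clusters G (275 CPM, 264 to 286) and N (260 CPM, 250 to 271) were not separated from mature monocyte-like cells by counting error. Macrophage-like cells had 189 and 221 CPM. Basophil or mast cell-like cells held 0 of its UMIs in DMSO and 4 in DAB, and activated dendritic-like cells had 17.2 and 9.15 CPM, so the classes with the highest Alox5 and the highest Ltc4s had little Ptgs1. A direction was read in immature monocyte-like cells, where it was higher in DAB (106 and 163 CPM, log2 ratio 0.62, 0.51 to 0.72), and in activated dendritic-like cells, where it was lower (45 and 16 UMIs, -0.91, -1.83 to -0.06). The first of these was 0.41 and the second -0.08 under another clustering.

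Hpgds had few UMIs, so its values are wide. B cell-like cells had its highest level, 11 UMIs (14.6 CPM, 7.30 to 26.2) in DMSO and 24 (21.4 CPM, 13.7 to 31.8) in DAB, and after thinning it was found in 3 of 141 and 11 of 190 of these cells. The neighbouring classes in DMSO, macrophage-like cells (8.87 CPM) and chemokine-high granulocyte-like cells (6.55 CPM), were not separated from it by counting error. In mature monocyte-like cells it went from 12 UMIs (3.20 CPM) to 65 (11.6 CPM), a log2 ratio of 1.86 (0.96 to 2.88; 0.82 to 2.28 in 5 other clusterings), the one class with a direction. Basophil or mast cell-like cells held 1 UMI in each library. The B cell-like class kept the highest DMSO level of Hpgds in 5 of 7 other clusterings. Macrophage-like cells led at Leiden resolution 0.5 (15.6 CPM). A T or NK cell-like class led (29.1 CPM) when the genes that differ between libraries were left out of clustering.

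Ptges was highest in chemokine-high granulocyte-like cells, defined by Ccl3, Ccl4 and Cxcl2, at 37.1 CPM in DMSO (30.7 to 44.4) and 27.2 CPM in DAB (24.4 to 30.2). Mature PMN-like cells went from 42 UMIs (13.9 CPM) to 122 (27.1 CPM), a log2 ratio of 0.97 (0.45 to 1.51), but without alignment of the libraries the ratio was -0.13. Immature monocyte-like cells went from 162 UMIs (12 CPM) to 53 (5.68 CPM), a log2 ratio of -1.08 (-1.56 to -0.63). Activated dendritic-like cells held 1 UMI in each library. The inducible cyclooxygenase gene Ptgs2, which feeds Ptges in inflammation, had 3.14 CPM in DMSO and 3.81 CPM in DAB over all cells (0.28).

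**Figure D4:**
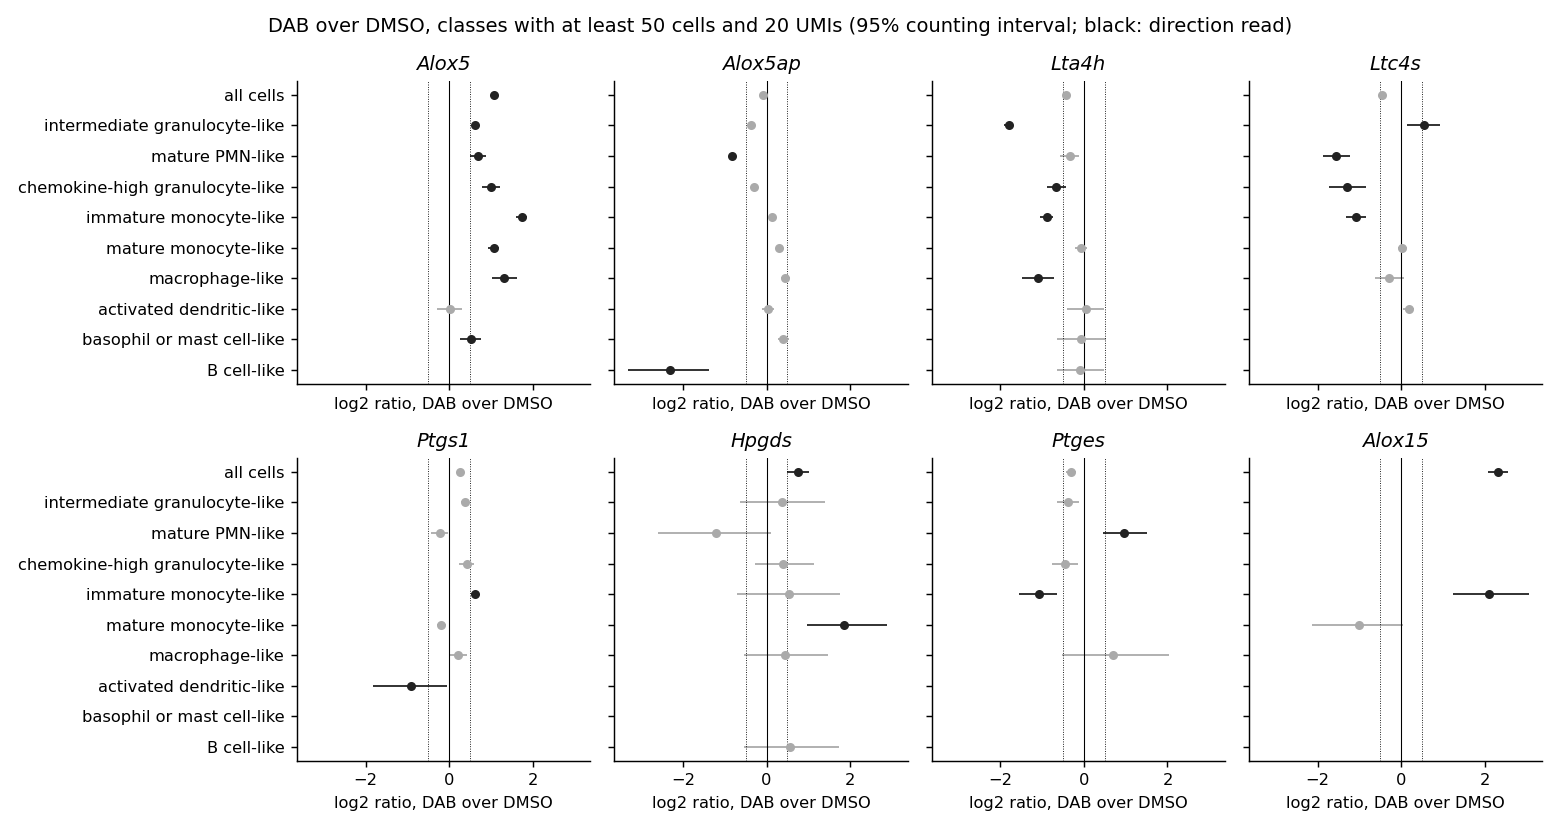
Log2 ratio of DAB over DMSO for each gene over all cells and in each class with at least 50 cells per library and 20 UMIs, with 95% counting intervals. Black points passed the limit of 0.5 (dotted lines) with an interval that leaves out 0. Grey points had no direction read, and some lie beyond the dotted lines with an interval that reaches 0. Alox5 lies to the right of 0 in every class shown and Lta4h and Ltc4s mostly to the left; Alox15 in intermediate granulocyte-like cells, with 0 UMIs in DMSO, has no finite ratio and is not drawn.

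Alox15 was concentrated in a small part of the cells. Clusters O and V, neither of which could be named, had its highest levels. Cluster O (89 DMSO and 372 DAB cells), led by Il2ra, Prg2 and Fgl2, had 56 of the 166 UMIs (36.7 CPM, 27.7 to 47.7) in DMSO and 547 of 1249 (63.2 CPM, 58.0 to 68.7) in DAB, a log2 ratio of 0.78. Cluster V (100 and 222 cells), led by Retnla, Fn1 and Ly6g, had 25 UMIs (18.8 CPM) in DMSO and 269 (67.8 CPM) in DAB, a ratio of 1.85. The intervals of O and V overlapped in each library and stood apart from the next cluster.

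Markers of several cell types stood beside Alox15. In cells outside clusters O and V, eosinophil markers summed to 16.4 CPM in DMSO and 36.4 CPM in DAB. Basophil or mast cell markers summed there to 123 and 185 CPM. In cluster O the 9 eosinophil markers summed to 105 CPM in DMSO, with 1 at 0, and 865 CPM in DAB, with none at 0. Prg2, an eosinophil granule protein, had 49.1 and 780 CPM of these sums. Epx had 24.2 and 51.8 CPM, against 1.38 and 0.63 CPM outside clusters O and V. Prg3 had 2.62 and 11.3 CPM (0.123 and 0.401 outside) and Ccr3 5.24 and 4.85 CPM (0.202 and 0.559 outside). Siglecf had 17.0 and 16.3 CPM, against 4.75 and 7.24 CPM outside. Il5ra, the receptor that defines the lineage, had 0 and 2 UMIs, and Ear1 had 2 in each library. Ear2 went from 3.93 to 0.116 CPM and Ear6 from 1.97 to 0.116 CPM, on 6 and 3 UMIs in DMSO and 1 each in DAB. The basophil or mast cell markers in cluster O summed to 426 CPM in DMSO, with 2 at 0, and 678 CPM in DAB, with 1 at 0. Gata2 (168 and 230 CPM), Cd200r3 (199 and 248 CPM) and Cpa3 (55.7 and 190 CPM) made up most of these sums. Mcpt8 had 0.655 and 7.51 CPM there, against 24.9 and 24.3 CPM outside clusters O and V. Prss34 had 1.97 and 0.347 CPM, against 63.8 and 82.7 CPM outside, and Fcer1a had 0 UMIs in both libraries of cluster O. In cluster V the eosinophil markers summed to 37.6 CPM with 4 at 0 and 217 CPM with 3 at 0. Epx, Ear1 and Il5ra were at 0 there in both libraries. Prg2 had 5.26 and 176 CPM in cluster V, Siglecf 14.3 and 19.2 CPM and Ccr3 7.52 and 18.6 CPM, while Ear2 went from 8.27 to 2.02 CPM. The basophil or mast cell markers in cluster V summed to 164 CPM with 5 at 0 and 269 CPM with 2 at 0. Nearly all of this was Gata2 (66.2 and 147 CPM) and Cd200r3 (97.8 and 121 CPM). Macrophage markers summed to 684 and 595 CPM in cluster O and 325 and 395 CPM in V, against 206 and 128 CPM outside both. Most of the sums in O and V was Adgre1, while Apoe and Mrc1 were lower than outside. Intermediate granulocyte markers summed to 1380 and 1680 CPM in O and 9150 and 7610 CPM in V, against 11300 and 6340 CPM outside. The part of cells with any of these markers in the difference of Alox15 was not tested. Without clusters O and V, Alox15 had 85 UMIs (0.952 CPM) in DMSO and 433 (3.41 CPM) in DAB, a log2 ratio of 1.84 (1.50 to 2.19). Prg2 in these remaining cells had 4.01 CPM in DMSO and 25.4 CPM in DAB.

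Outside those clusters Alox15 had at most 19 UMIs in any cluster of DMSO. Intermediate granulocyte-like cells held 0 UMIs in DMSO and 48 in DAB (3.11 CPM). The DAB level was 13.5-fold that of a floor of 3 counts over the class in DMSO (0.231 CPM). This fold leaves out the counting error of the DAB UMIs. The log2 ratio had no finite value, and the lower end of its counting interval was 3.4. Immature monocyte-like cells went from 15 to 45 UMIs (log2 ratio 2.11, 1.24 to 3.06). Mature monocyte-like cells held 19 and 14 UMIs (-1.02, -2.13 to 0.05), so no direction was read there. Granulocyte progenitor-like cells held none in either library.

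The genes whose pattern over clusters and libraries was most like each member were listed by Pearson r of log2(CPM + 1) over 53 sums from 27 clusters, among 6694 genes. The sums share libraries and differ in depth, so the values are descriptions. Alox5 was most like Fes, a myeloid tyrosine kinase (r = 0.836), F2rl2 and Tuba8, and its r with its partner Alox5ap was 0.772. Alox5ap was most like Ltb4r1, the receptor of leukotriene B4 (r = 0.867), Anxa1 and Fcgr3. Lta4h was most like Dnmt1, a DNA methyltransferase of dividing cells (0.786), Poc1a and Tkt, and its r with Ltc4s was -0.02.

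Ltc4s was most like Cst3, the cystatin abundant in dendritic cells (0.856), Galm and Hfe. Ptgs1 was most like Pilra, a myeloid inhibitory receptor (0.917), Spint1 and Trem1. Ptges was most like Inhba (0.878), Il1f9 and Cd14, and Alox15 like Akr1c13 (0.785), Fgfr1 and Fgl2. The nearest to Hpgds were Hvcn1 (0.617), Nfkbid and Cd22, an inhibitory receptor of B cells.

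The other genes of the pathway were taken from a list of 55 symbols, of which 42 had at least 20 UMIs. Of these 9 were higher in DAB and 13 lower, with a median log2 ratio of 0.00, beside 13.8% higher and 16.4% lower among all genes. Upstream, the cytosolic phospholipase Pla2g4a, which frees arachidonic acid, had 32.8 CPM in DMSO and 42.7 CPM in DAB (0.38). In mature PMN-like cells it went from 19.5 to 54.5 CPM (1.48). Pla2g7, which breaks down platelet-activating factor, had 200 and 230 CPM (0.20), and Cotl1, a binding partner of 5-lipoxygenase, 356 and 439 CPM (0.30).

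Of the membrane glutathione transferases, which belong to the same family as Ltc4s, Mgst1 and Mgst3 were lower in DAB and Mgst2 had no direction. Mgst1 went from 274 to 116 CPM (-1.24) and Mgst3 from 47.9 to 28.2 CPM (-0.76). Mgst2, which can also make leukotriene C4, had 146 and 122 CPM (-0.27). Dpep2, a dipeptidase that trims cysteinyl leukotrienes, had 50.6 and 69.9 CPM (0.47), and Abcc1, which exports leukotriene C4, 57.1 and 68.1 CPM (0.25). Of the enzymes that inactivate these lipids, Ptgr1 went from 58.2 to 36.2 CPM (-0.68), while Ptgr2 had 22.3 and 22.6 CPM and Cyp4f18, which degrades leukotriene B4, 39.5 and 43.7 CPM (0.15). Ephx1, an epoxide hydrolase, had 8.77 and 5.56 CPM (-0.66).

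In the prostanoid branch Tbxas1, the thromboxane synthase, went from 132 to 90.8 CPM (-0.54). The cytosolic prostaglandin E synthase Ptges3 had 122 and 148 CPM (0.29), and Akr1b3, which can make prostaglandin F2α, 56.0 and 62.1 CPM (0.15).

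Among the receptors, 5 of the 12 with enough UMIs were higher and 4 lower, beside 13.8% higher and 16.4% lower among all genes. Ptger3, a receptor of prostaglandin E2, went from 181 UMIs (1.96 CPM) to 1988 (14.2 CPM), a log2 ratio of 2.86 (2.64 to 3.08), and Ptger2 from 9.56 to 26.7 CPM (1.48, 1.37 to 1.59). Ptger3 in DMSO was highest in basophil or mast cell-like cells, at 79.0 CPM and 101 CPM in DAB, while in immature monocyte-like cells it went from 4 to 121 UMIs. Ptger2 in DAB was highest in mature PMN-like cells, at 18.8 CPM in DMSO and 72.7 CPM in DAB. The leukotriene receptors Ltb4r1 (170 and 166 CPM, -0.03) and Cysltr1 (28.4 and 25.4 CPM, -0.16) showed no direction. Fpr2, a receptor of lipoxins and formyl peptides, went from 36.5 to 22.4 CPM (-0.70).

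**Figure D5:**
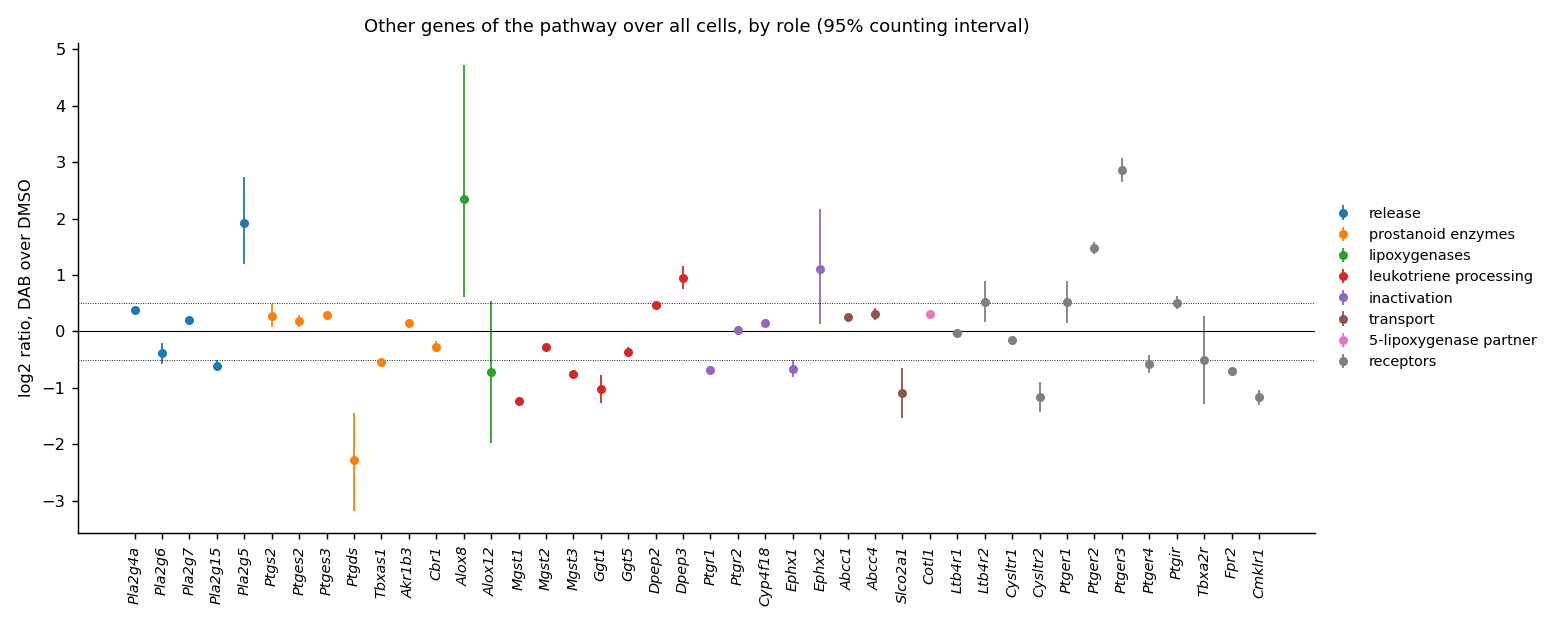
Log2 ratio of DAB over DMSO over all cells for the 42 other pathway genes with at least 20 UMIs, grouped and coloured by role, with 95% counting intervals and dotted lines at the limit of 0.5. Ptger3 lies highest at 2.86, Ptger2 lies at 1.48 and Mgst1 at -1.24.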

How the data were processed

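Per the labels and the study's methods, the authors aligned 10x Genomics 5′ v2 reads to mm10 with Cell Ranger 7.0.0, and the deposited values are raw UMI counts per gene and barcode, with no normalization. Whether reads in introns were counted is not stated there. The deposited tables held 9855 DMSO and 11631 DAB barcodes with 106792967 and 165506902 UMIs and at least 500 UMIs each. Barcodes over 10% mitochondrial UMIs were left out (55 and 89), none was an outlier at 4 median absolute deviations, and 777 and 1082 were removed as doublets by a score from simulated pairs. The labels of cell types in the study were not used here.

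Pearson residuals of 3000 variable genes, with 64 eicosanoid genes left out and cell cycle and mitochondrial scores regressed out, were reduced to 40 components, aligned by mutual nearest neighbours (k = 20) and clustered with Leiden at resolution 0.9 (Python 3.11.15, leidenalg 0.10.2, seed 1). A cluster was named for the class whose markers had the highest average log2 fold in it (10 CPM added) if at least 3 markers and most of those detected reached a log2 fold of 1 and more of its own than of any other class's markers were among its 10 leading genes. This rule was set after the clusters were seen, and the names may differ from those of the study.

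Levels are summed UMIs per 1000000 UMIs (CPM) with exact Poisson 95% intervals, ratios carry exact conditional binomial intervals with no count added, and shares carry exact Clopper-Pearson intervals after thinning to 1500 UMIs, below which lay 436 cells of DMSO and 292 of DAB. A share of 0 is given with the share that 3 counts would make. These cover counting error only. A ratio needed 20 UMIs over both libraries and, in a class, 50 cells of each. The interval and the limit of 0.5 were tested on simulated Poisson counts with known ratios. The simulation held counting error only, so it cannot show how libraries or cultures of 1 condition would differ. The members and lists were chosen with earlier results of these data known. The genes named are the members, pathway genes at 20 CPM in a library or 100 CPM in a class, and for each member the 3 most similar genes among those at 50 CPM in a sum of at least 30 cells. Ptgs2, and genes naming clusters, were added after the values were seen. The alternatives were no filter, no doublet removal, a mean over cells, scaling by the median of ratios, clusters weighted to the DMSO mix, 200 UMIs per gene, a limit of 1.0, Leiden resolutions 0.5 and 1.5, no alignment, no regression, clustering without 78 genes that differ between libraries or with the eicosanoid genes, thinning to 3000 UMIs and no thinning.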

Additional observations from a re-analysis of the deposited data

Results flagged for a closer look

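In 3 of the genes a direction was read both ways, higher in DAB in one class and lower in another. The difference between classes was not tested in any of them, since each condition has 1 library. Ltc4s had a log2 ratio of 0.54 in intermediate granulocyte-like cells, and of -1.55 in mature PMN-like, -1.29 in chemokine-high granulocyte-like and -1.07 in immature monocyte-like cells. Ptgs1 had 0.62 in immature monocyte-like and -0.91 in activated dendritic-like cells. Ptges had 0.97 in mature PMN-like and -1.08 in immature monocyte-like cells. In each of the 3 genes the higher direction was lost in another clustering. There Ltc4s was 0.19 in intermediate granulocyte-like cells, Ptgs1 0.41 in immature monocyte-like cells and Ptges -0.13 in mature PMN-like cells. The lower direction of Ptgs1 was lost as well (-0.08). That of Ltc4s was kept in 5 of 6 other clusterings in chemokine-high and in immature monocyte-like cells, where its ratios shrank to -0.51 and -0.38. In mature PMN-like cells it was kept in all 6, as was the lower direction of Ptges in immature monocyte-like cells.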

How the results depend on the processing

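Of 64 ratios of the 8 genes over all cells under 8 alternatives, 52 stayed within the counting interval and 12 left it. The higher minimum of UMIs per gene and the limit of 1.0 change only which ratios get a direction. They cannot move a ratio, so the ratios under them are among the 52 by construction. No ratio with a direction changed sign, and Ptges, which had none, turned from -0.31 to 0.18 with a mean over cells. Alox5 ranged from 0.77 to 1.08 and Alox15 from 1.64 to 2.32. One alternative, leaving out cells whose barcode is in both libraries, was chosen after seeing the data and gave 3 genes higher and 0 lower, as before. With a mean over cells, 2 genes were lower in place of 0, and 7 other pathway genes were lower in place of 13. With a limit of 1.0, 2 of the 8 genes were higher, and 5 pathway genes were higher and 6 lower. The shares of all genes under these alternatives were not computed. Scaling by the median of ratios shifted log2 ratios by -0.008. By class, 218 of 310 ratios stayed within their interval. The sign changed in 22 of the 310, and in 1 of these a direction had been read: Ptges in mature PMN-like cells was -0.13 without alignment. Among the rest were Hpgds in macrophage-like cells (0.44, down to -0.77), Alox15 in mature monocyte-like cells (-1.02, up to 0.96) and Ltc4s in the latter (0.03, down to -0.48). Of 23 class ratios with a direction and a finite value, 12 kept it in every other clustering. The class with the highest DMSO level was the same for 5 of 8 genes at resolution 0.5 and for 6 or 7 in the other 6 clusterings. It held in all 7 for Alox5, Alox5ap, Ltc4s and Ptges, in 6 for Ptgs1, 5 for Hpgds, 4 for Lta4h and 3 for Alox15. The causes were not tested. Depth set the shares of cells with a UMI. Thinned to 3000 UMIs, the shares in DMSO and DAB were 31.0% and 46.3% for Alox5, 87.8% and 81.5% for Alox5ap, 27.8% and 20% for Lta4h, 12.3% and 8.51% for Ltc4s, and 30.5% and 33.2% for Ptgs1. Without thinning they were 52.7% and 68.7%, 91.9% and 87.8%, 49.5% and 43.9%, 24.0% and 19.8%, and 50.1% and 55.6% in the same order. No paired analysis was possible because each condition has 1 library.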
